A study of Drosophila melanogaster with 3 samples.

Results

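The elav family of Drosophila melanogaster comprises 3 genes here, elav (FBgn0260400), fne (FBgn0086675) and Rbp9 (FBgn0010263), out of 13968 protein-coding genes of the Ensembl BDGP6 annotation. For each gene, every peak summit in the gene body or in the 2000 bp upstream of it, together called the gene's window, was taken. The genes were chosen by family with measured values in view, namely the strength of the optimal peak at elav in these data, so their values are a description and carry no test. The assay was ChIP-seq, in which DNA is sequenced after it is pulled down with a protein that sits on it. All 3 samples, biological replicates 1, 2 and 3, belong to 1 group: whole embryos of both sexes, aged 0 to 16 h, of the strain ind-GFP. These embryos carry a stable transgene that makes the protein of ind (intermediate neuroblasts defective) with eGFP, a green fluorescent protein, at its C-terminus, and the chromatin was pulled down with an antibody against GFP. There is no untreated or wild-type group, and the 1 control named in the deposited notes was not analysed here. Because whole embryos were used, a strong peak in few cells and a weaker one in many cells cannot be told apart, and peak lists hold no expression from which to check the tissue.

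ELAV-type proteins bind RNA through RNA recognition motifs and act after transcription, on alternative splicing and on the choice of the end of messenger RNAs. The ELAV protein is present in the nuclei of nearly all post-mitotic neurons and is a standard marker of them in the fly. FNE (found in neurons) is also a neuronal protein, and RBP9 is known from neurons and from the female germ line. The ind gene encodes a homeodomain transcription factor that specifies the intermediate column of neuroblasts in the ventral nerve cord. The proteins of the 3 genes are related: in global alignments of the longest annotated protein of each gene, ELAV and FNE shared 66.5% of 340 aligned residues, ELAV and RBP9 58.7% of 395, and FNE and RBP9 72.7% of 341.

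The authors deposited 5 lists in the dm6 build. Each replicate has a relaxed list of peaks and background, holding 30000, 27570 and 25725 peaks in replicates 1, 2 and 3. The round total of replicate 1 may be a limit set in processing, which the sources used here do not state, and summit counts in that list share this uncertainty. A pooled relaxed list of 24244 peaks came from all 3 replicates together. An optimal list of 5809 peaks was drawn from the relaxed lists by IDR (irreproducible discovery rate), which selects peaks by how well their ranks recur across replicates. Not every optimal peak was matched in all 3 replicates: the optimal summit of the gene ssx had a match in 2. Signal is as deposited by the authors, and its scale differs between lists: the median over the peaks that match an optimal site came to 50.2, 81.0 and 90.9 in replicates 1, 2 and 3. Values below are therefore relative signals, the authors' signal divided by that median, so that 1 is the level of a typical optimal site in the same list. The read depth of the libraries is unknown from these lists.

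The 3 genes held 6 optimal summits, 3 at elav, 2 at fne and 1 at Rbp9. The reference sequence (RefSeq, Release 6, dm6) around 5 of them is shown for 201 bases centred on the summit, on the strand of the gene and 5′ to 3′, because these are the places where the ind-eGFP signal of the family was recovered in every list. The other optimal summit, at elav, lies in a 3′ UTR and is not shown. Capitals mark TAATTA and its longer form TTAATTA, the related letters CAATTA, and the repeat GAGAG, on either strand. The first 3 are cores to which homeodomain proteins can bind, and the GAGA factor reads the repeat.
elav strongest summit, upstream of the first start, chrX:523404-523604, minus strand: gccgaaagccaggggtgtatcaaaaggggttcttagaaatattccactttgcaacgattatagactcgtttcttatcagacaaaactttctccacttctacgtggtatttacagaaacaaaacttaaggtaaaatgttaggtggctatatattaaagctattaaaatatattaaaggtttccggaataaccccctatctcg
elav first intron, chrX:522538-522738, minus strand: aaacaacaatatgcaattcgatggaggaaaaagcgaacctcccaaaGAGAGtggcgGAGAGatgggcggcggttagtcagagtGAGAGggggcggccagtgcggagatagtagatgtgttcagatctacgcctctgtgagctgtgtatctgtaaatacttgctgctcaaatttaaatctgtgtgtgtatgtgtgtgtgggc
fne intron, chrX:12923410-12923610, plus strand: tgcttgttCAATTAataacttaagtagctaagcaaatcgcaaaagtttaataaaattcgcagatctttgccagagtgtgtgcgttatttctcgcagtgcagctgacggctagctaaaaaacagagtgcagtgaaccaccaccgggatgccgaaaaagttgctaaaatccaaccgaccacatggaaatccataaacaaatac
fne intron, strongest summit of the gene, chrX:12925844-12926044, plus strand: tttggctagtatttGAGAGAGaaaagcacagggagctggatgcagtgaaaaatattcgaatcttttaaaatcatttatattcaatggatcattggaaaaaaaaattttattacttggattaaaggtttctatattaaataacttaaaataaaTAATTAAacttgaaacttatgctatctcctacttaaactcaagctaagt
Rbp9 intron, chr2L:2957719-2957919, plus strand: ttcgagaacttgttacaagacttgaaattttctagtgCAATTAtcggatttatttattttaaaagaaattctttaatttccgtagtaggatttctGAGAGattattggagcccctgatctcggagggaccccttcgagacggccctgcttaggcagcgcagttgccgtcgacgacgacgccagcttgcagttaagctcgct

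The strongest of these windows, upstream of elav, holds none of the marked motifs. By contrast, the elav intron window holds 3 GAGAG matches and none of the marked homeodomain cores. Shorter forms of these cores were not searched for. Both fne windows hold a homeodomain core, CAATTA in one and TTAATTA with the TAATTA inside it in the other. The Rbp9 window holds 1 CAATTA and 1 GAGAG. None of the 5 windows overlaps an annotated exon.

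The elav gene spans 13992 bp on the minus strand (chrX:509235-523226), with 4 transcripts from 2 start sites. Its coding sequence is followed by a long 3′ UTR that takes up much of the gene. The arginase gene arg, on the plus strand, starts near the end of elav and spans the rest of it, and every optimal and pooled summit at elav lies in an arg intron. A long non-coding RNA gene, lncRNA:enrr, starts at the same base as elav. Distances below are signed along transcription, with negative values upstream.

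The strongest summit of the family stood at −278 bp from the first elav start (summit at chrX:523504, peak chrX:523286-523692). The authors' signal there reached 264, 418 and 494 in replicates 1, 2 and 3, which gave relative signals of 5.25, 5.16 and 5.44. The replicates lay close together, at 5.28 ± 0.143 (SD, n = 3), and the summit fell within 27 bp of the optimal one in every replicate. In the optimal list its relative signal was 5.35, which ranked 124 of 5809.

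The elav summit at 588 bp, in the first intron (chrX:522638), had relative signals of 1.96 in replicate 1, 2.17 in replicate 2 and 2.99 in replicate 3 (2.38 ± 0.541, SD, n = 3). It stood at the same base in all 5 lists and ranked 714 in the optimal list. It was lower than the upstream summit in each replicate, and the highest of its values was below the lowest of the upstream ones.

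The third optimal summit of elav lay 10464 bp into the gene (chrX:512762), in the 3′ UTR. Its relative signals were 0.591, 0.410 and 0.557 in replicates 1, 2 and 3 (0.519 ± 0.0963, SD, n = 3), below the level of a typical optimal site in all 3. It ranked 5501 in the optimal list, close to its end. Its nearest coding start belongs to arg, at 3327 bp.

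The pooled list added 2 elav summits that the optimal list does not hold. The summit at −1325 bp (chrX:524551) had relative signals of 0.243, 0.447 and 0.643 in replicates 1, 2 and 3. The summit near the second elav start (chrX:520564, −279 bp from it) had 0.527, 0.215 and 0.163. Its match in replicate 3 stood elsewhere, at chrX:520367, −82 bp from that start, and ranked 25538 of 25725 in that list. Within 100 bp, 2 replicates held a match, so the 3 values may not be of the same site. The authors' −log10 q-value, the significance of a peak over the control after correction for many peaks, was 3.63 for the distal upstream summit and 1.08 for the one near the second start. The values of both varied between replicates by more than 2-fold, with the highest value in replicate 3 for the one and in replicate 1 for the other.

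The fne gene is the longest of the 3, with 32941 bp on the plus strand (chrX:12917477-12950417), 11 transcripts and 4 start sites. Both of its optimal summits lie in the large intron after the first exons, far from any of these starts. The summit at 8467 bp (chrX:12925944, peak chrX:12925744-12926143) had relative signals of 0.695, 0.670 and 0.904 in replicates 1, 2 and 3 (0.756 ± 0.129, SD, n = 3). The summit at 6033 bp (chrX:12923510) had 0.344, 0.658 and 0.631 (0.545 ± 0.174, SD, n = 3). All 6 values were below 1, and those of the summit at 8467 bp were the higher in each replicate. They ranked 3952 and 5449 in the optimal list.

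In the pooled list fne held 9 summits, more than elav with 5 or Rbp9 with 3. Of the 7 that are not optimal, 2 stood next to an optimal summit, at gaps of 207 and 201 bp, and another pair lay 202 bp apart, at −566 and −364 bp from the start used by 5 of the 11 fne transcripts (chrX:12938517). That pair had relative signals of 0.389 and 0.303 in the pooled list and was found in all 3 replicates. Such gaps are common in these lists: the smallest gap between neighbouring pooled summits was 199 bp, and 1149 gaps were of 200 to 210 bp, against 301 of 211 to 221 bp. Whether the close pairs of fne are separate sites was not tested.

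The other fne summits of the pooled list were weaker or at other starts. The summit at −1145 bp from the last fne start (chrX:12941272) had relative signals of 0.412, 0.351 and 0.545 in replicates 1, 2 and 3 and a −log10 q-value of 3.19 in the pooled list. At −591 bp from the first fne start, a pooled summit of relative signal 0.158 was matched in replicate 3 and in no other replicate. The intron also contains a copy of the retrotransposon HMS-Beagle (chrX:12930633-12937689, 7057 bp), over which none of the 5 lists held a summit. The sources used here do not say how reads from repeats were handled.

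The Rbp9 gene spans 13673 bp on the plus strand (chr2L:2954762-2968434), with 9 transcripts from 3 start sites. Its single optimal summit (chr2L:2957819, peak chr2L:2957619-2958018) lies in an intron, 908 bp past the start that 4 of the transcripts use. Its relative signals were 0.528, 1.25 and 0.894 in replicates 1, 2 and 3 (0.892 ± 0.363, SD, n = 3). This was the widest relative spread among the strongest summits of the 3 genes, with replicate 2 above a typical optimal site and replicate 1 near the 3′ UTR summit of elav. In replicate 1 the nearest summit also stood 97 bp away from the optimal position. The 2 further pooled summits of Rbp9 were weak, with relative signals of 0.159 and 0.154.

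**Figure D1:**
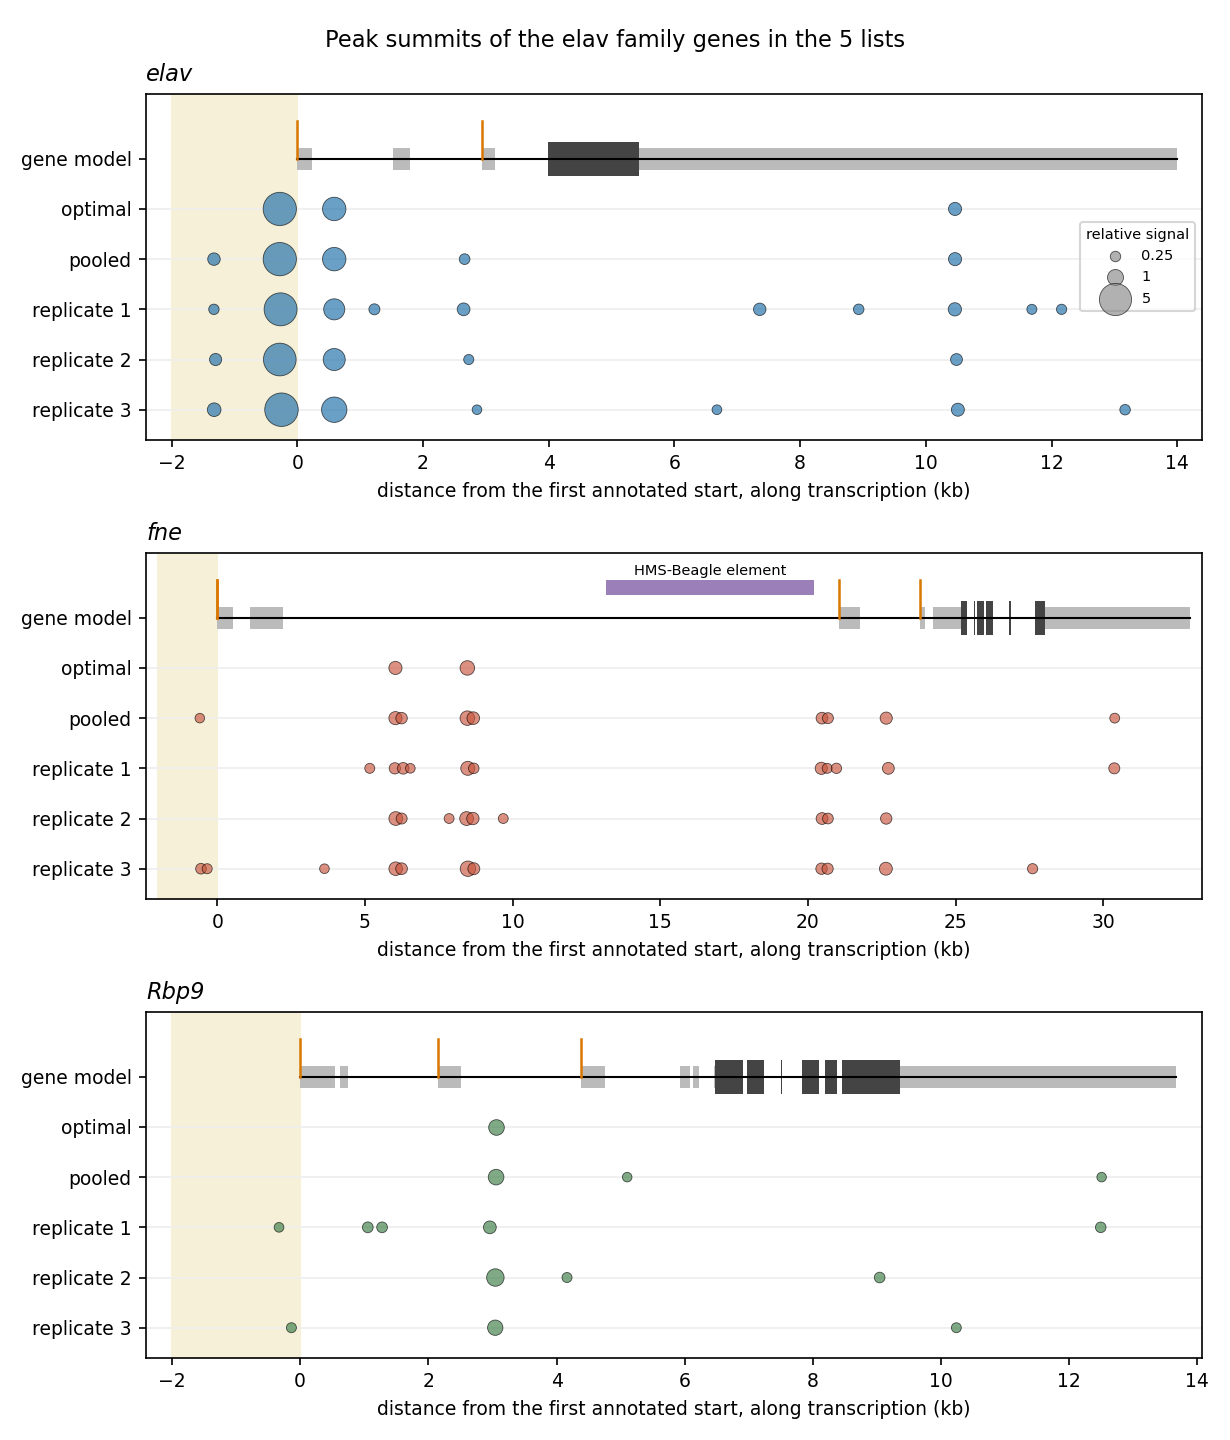
Peak summits along elav, fne and Rbp9 in each of the 5 lists, by distance from the first annotated start along transcription (kb). Circle area grows with relative signal, grey boxes are untranslated exons, black boxes coding exons, orange ticks start sites, and the shaded strip the 2000 bp upstream; the largest circles, at 5.16 to 5.44 in the replicates, stand just upstream of elav.

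The map of summits along the genes shows this arrangement: a strong pair flanks the first start of elav in every list, a row of weaker summits runs through the introns of fne, and a single intron summit of Rbp9 recurs.

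Set side by side, the strongest summit of elav was above that of fne in each replicate, with a mean log2 ratio of 2.82 ± 0.198 (SD, n = 3). It was also above that of Rbp9 in each, with a mean log2 ratio of elav over Rbp9 of 2.65 ± 0.639 (SD, n = 3). The lowest elav value, 5.16, lay above the highest fne value, 0.904, and above the highest Rbp9 value, 1.25. Since the genes were chosen with these values known, that separation is a description.

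Rbp9 and fne could not be ordered. Rbp9 was the higher in replicate 2 and in the pooled list, at 0.943 against 0.771 for fne in the latter. The optimal list repeats these pooled values, and the pooled list combines the replicates, so neither is separate evidence. In replicate 1 the strongest summit of Rbp9 was the lower, at 0.528 against 0.695 for fne, and in replicate 3 it was marginally lower, at 0.894 against 0.904. The mean log2 ratio of Rbp9 over fne was 0.16 ± 0.67 (SD, n = 3), within the spread between replicates, and −0.21 without replicate 2.

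**Figure D2:**
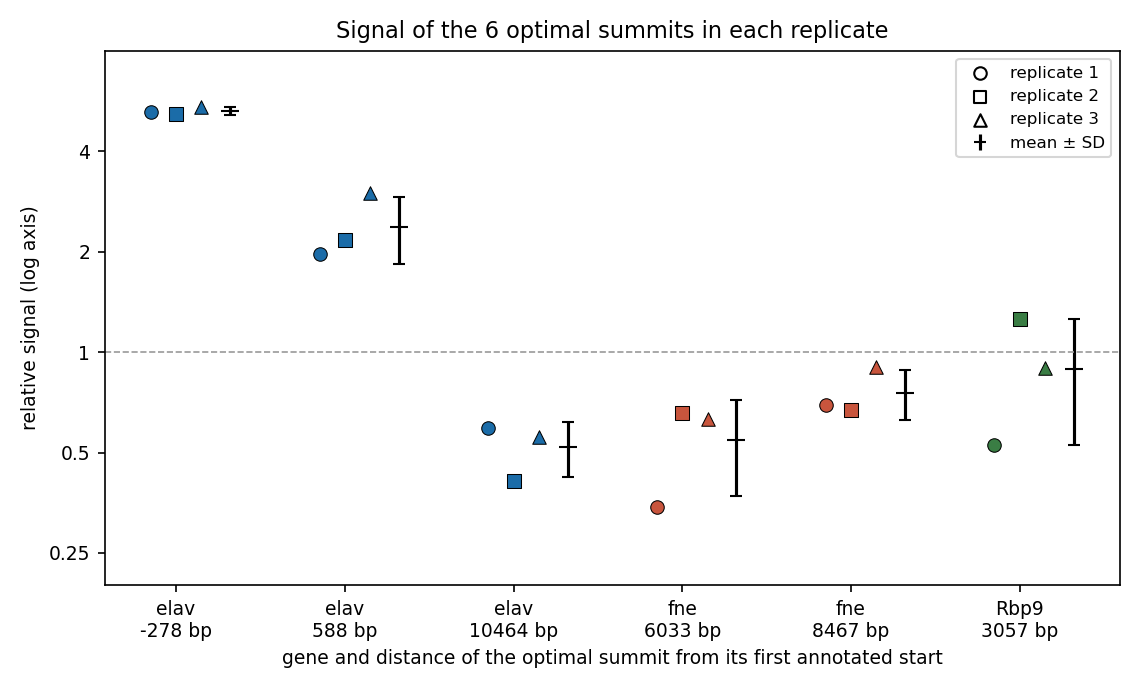
Relative signal of the 6 optimal summits in replicates 1, 2 and 3 (log axis), with mean ± SD; the dashed line at 1 is a typical optimal site. The upstream and first-intron summits of elav lie above the line in all replicates, the 3′ UTR summit of elav and both fne summits below it, and Rbp9 on both sides.

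The plot of replicate values shows that the spread relative to the mean is smallest for the strongest summit and that the 4 weaker summits share a range from 0.344 to 1.25. Across all genes with an optimal summit, ranked by their strongest one, elav stood at 191 of 4782, Rbp9 at 3224 and fne at 3810. Thus 96.0% of these genes ranked below elav, 32.6% below Rbp9 and 20.3% below fne. The median over the 4782 genes was 1.30, between elav and the other 2 genes.

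**Figure D3:**
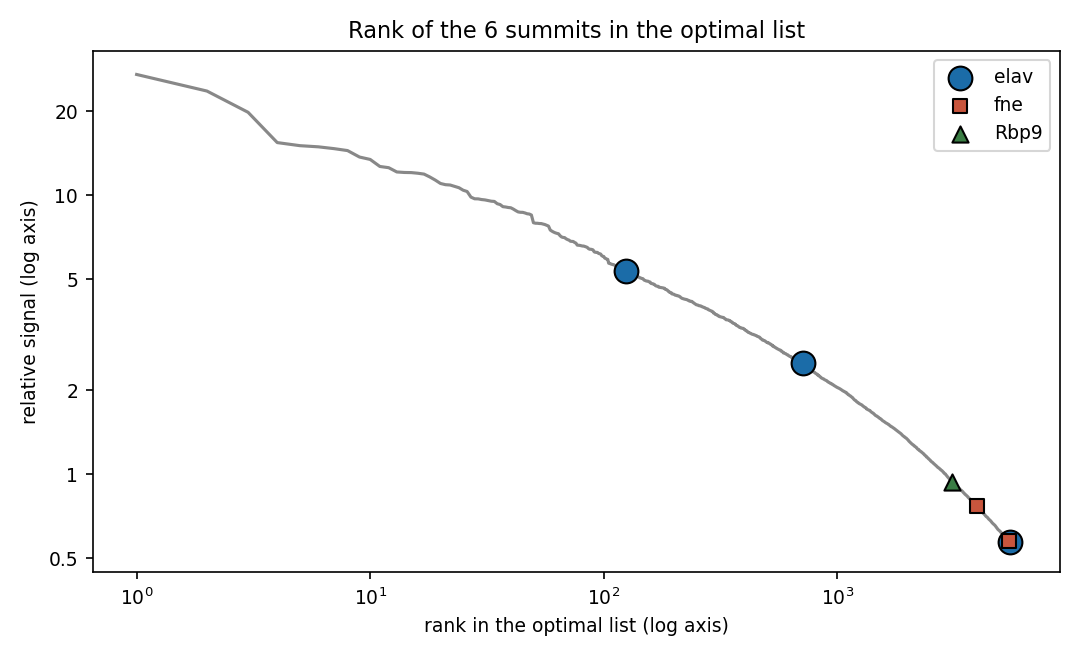
Relative signal of all 5809 optimal peaks by rank (both axes log), with the 6 summits of elav (circles), fne (squares) and Rbp9 (triangle) marked. Ranks run from 124 for the elav upstream summit to 5501 for the elav 3′ UTR summit, which lies under the lower fne summit at 5449.

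The rank plot places 2 of the elav summits among the strong peaks and the remaining 4 summits of the family in the lower part of the list. All 3 genes had an optimal summit in their window, as did 34.2% of all coding genes and 63.8% of the 1490 coding genes at least as long as Rbp9. At least 2 optimal summits were held by elav and fne, and by 10.5% of all coding genes. At least 3 were held by elav, and by 4.00% of coding genes. Per 10 kb of window, elav had 1.88 optimal summits, fne 0.572 and Rbp9 0.638. As the genes were picked with these peaks known, nothing is read from their counts against those shares.

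The genes also differed in where their optimal summits lie. An optimal summit within 500 bp of one of its own starts was present at elav and at neither fne nor Rbp9, against 23.9% of all coding genes, 30.5% of those at least as long as Rbp9, and 69.9% of the 4782 genes with an optimal summit. The optimal summit nearest to a start of fne was 6026 bp away, and that nearest to a start of Rbp9 908 bp. In the relaxed lists, summits did appear close to starts of both paralogues, but they were weak. The summit nearest to the fne start at chrX:12938517 lay at −76, −364 and −374 bp in replicates 1, 2 and 3, with relative signals of 0.240, 0.284 and 0.334. At the first fne start, replicate 3 held a summit at −342 bp with 0.204, and replicates 1 and 2 held none within 500 bp. At the first Rbp9 start, replicate 1 held one at −330 bp with 0.172 and replicate 3 one at −137 bp with 0.203, while replicate 2 held none. At the last Rbp9 start, replicate 2 held one at −221 bp with 0.204, and the other replicates held none within 500 bp.

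The relaxed lists held more summits per gene, most of them weak. The gene elav held 10 summits in replicate 1, 5 in replicate 2 and 7 in replicate 3 (7.33 ± 2.52, SD). For fne the counts were 11, 9 and 11 (10.3 ± 1.15), and for Rbp9 5, 3 and 3 (3.67 ± 1.15). All 3 genes had a summit in each relaxed list, as did 61.0% of coding genes in the pooled list, 69.0% in replicate 1, 63.9% in replicate 2 and 64.9% in replicate 3. When summits below a −log10 q-value of 2 were dropped, the counts in replicates 1, 2 and 3 were 5, 2 and 4 for elav, 4, 2 and 5 for fne, and 1 in each replicate for Rbp9. The 3 genes thus kept between 1 and 5 summits, and elav and fne no longer differed in a fixed direction.

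**Figure D4:**
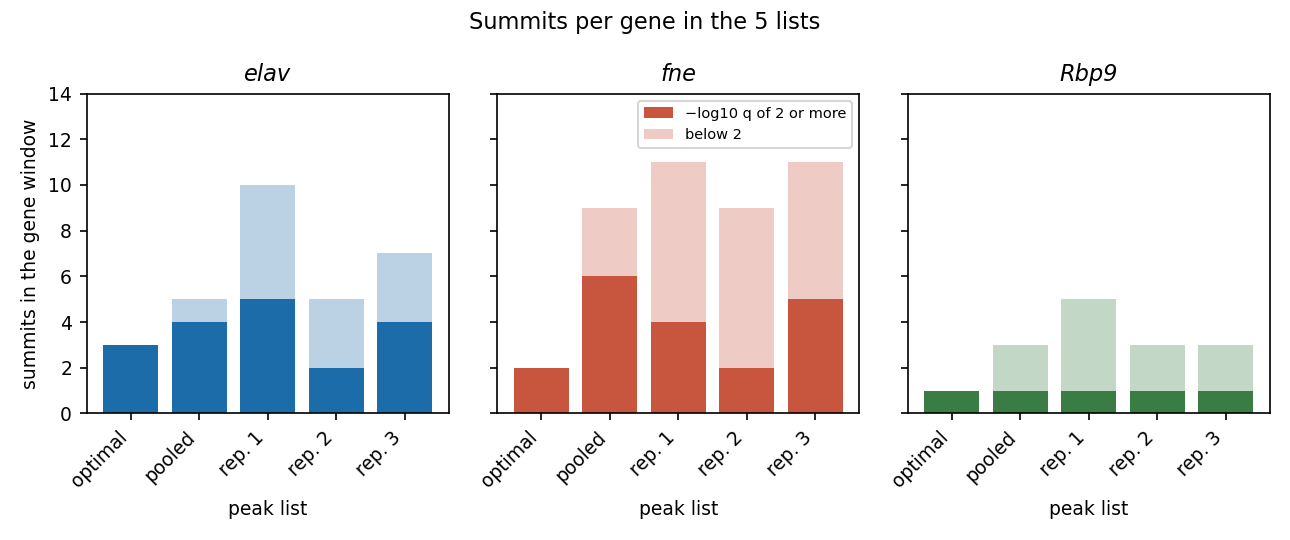
Number of summits in the window of elav, fne and Rbp9 in each of the 5 lists; the dark part of each bar counts summits with a −log10 q-value of 2 or more. The pale parts are largest in the replicate lists, where fne reaches 11 summits and elav 10, while Rbp9 has 1 dark summit in every list.

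The bar chart of counts shows the same excess of weak summits in the replicate lists. Many of these had no pooled summit within 200 bp: in replicate 1 they were 5 of 10 at elav, 3 of 11 at fne and 3 of 5 at Rbp9. The strongest of them was an elav 3′ UTR summit in replicate 1 (chrX:515869, relative signal 0.484, −log10 q-value 3.09). In replicate 2, every elav summit had a pooled partner. The −log10 q-value does not rank the strong peaks, since all 5809 optimal peaks carry the same value, 4.08, which is the highest in the pooled list.

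The summed relative signal over all pooled summits of a gene was 9.19 for elav, 3.71 for fne and 1.26 for Rbp9. For elav the sum differed little from that over its optimal summits, 8.42, whereas fne had 1.35 over its optimal summits. Most of the fne total thus came from summits that did not pass into the optimal list. However, that total counts both summits of each close pair, and the peaks of each pair overlap. The summits next to the optimal ones added 0.367 and 0.508. Whether such pairs are separate sites was not tested, so the share from outside the optimal list depends on how they are counted.

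Just outside the 2000 bp limit, the nearest pooled summit upstream of elav lay 3423 bp away (chrX:526649, relative signal 0.368), and the outermost one inside lay at 1325 bp with 0.490. For fne the nearest upstream pooled summit outside lay 2230 bp away, with 0.202, and the one inside at 591 bp with 0.158. For Rbp9 no pooled summit lay upstream within the limit, and the first beyond it was 10124 bp away. Downstream of Rbp9, an optimal summit 4318 bp past the gene's end was stronger than any in the gene, with a relative signal of 3.34 (chr2L:2972752). It lies near the starts of gammaTub23C, a gamma-tubulin gene, and of Rrp1, which encodes an enzyme that repairs DNA.

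Other flanking genes had moderate peaks. The gene svr, which encodes a carboxypeptidase and ends 163 bp from elav, had 1 optimal summit at 1.52. CG4293, on the other side of elav, had none. Beside fne, CG4645 had 2 optimal summits, the stronger at 1.08, and hec, a G protein-coupled receptor gene, had 1 at 0.674. Beside Rbp9, lilli, which encodes a transcription elongation factor subunit, had 4, the strongest at 1.86, and Ts, the thymidylate synthase gene that overlaps the end of Rbp9, had none.

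The sequence within 100 bp of the 6 optimal summits was searched on both strands for 8 motifs. TAATTA was found at 1 of the 6 windows and at 18.1% of all 5809 optimal summits, and TTAATTA, which contains it, at 1 and at 11.8%. CAATTA was found at 2 of 6 and at 19.7% of all. GAGAG was found at 4 of 6, against 20.4% of all: at the elav summits at 588 and 10464 bp, the fne summit at 8467 bp and the Rbp9 summit. The E-box CANNTG, a site for basic helix-loop-helix proteins, was found at 2 of 6 and at 59.3% of all, and AAAAAA at 3 of 6 and 48.5% of all. TATCGATA, the site of the factor DREF, and CAGGTAG, the site of Zelda, were found at none of the 6, against 3.79% and 0.826% of all. A match is a description of the letters and no measurement of binding, and with 6 windows from 3 genes no comparison of the shares was tested.

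None of the 8 motifs occurred within 100 bp of the strongest elav summit. Its window was 64.2% A+T, near the median of all optimal summits, 65.7% (quartiles 61.2% and 69.2%). The elav window at 588 bp was poorer in A+T, at 51.2%, with 2.86% of all optimal windows lower. The elav 3′ UTR window was 60.2% A+T, the fne windows 59.2% and 73.6%, and the Rbp9 window 55.2%. Of the 6 windows, the fne window at 8467 bp was above the median of all optimal summits and the others were below it.

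The family was also set beside other genes of RNA control. In a list of 35 neuronal and germline RNA-binding and splicing regulator genes, none of them a member, 29 (82.9%) had an optimal summit and 19 (54.3%) had one at an own promoter. These genes are long, with a median of 36409 bp against 2164.5 bp for all coding genes, so the 34.2% of all coding genes with an optimal summit and the 23.9% with one at an own promoter are not like comparisons; among coding genes at least as long as Rbp9 the shares were 63.8% and 30.5%, and neither difference was tested. The median of their strongest summits was 1.41, close to the 1.30 of all genes with a summit. In the optimal list, 1 of the 29 genes stood above elav: mub, a gene of a KH-domain protein, with 5.51 there and 5.21 ± 1.32 over replicates (SD, n = 3). The next were brat, a translational repressor of neural stem cell growth, at 5.26 (5.12 ± 0.0664), msi, the fly Musashi, at 4.79 (4.66 ± 0.634), and orb, a germline translation regulator, at 3.01 (2.88 ± 0.397). The summit of orb lies nearest to the start of the neighbouring gene Cdc16. Over replicates, the values of mub ran from 3.77 to 6.36 and so overlapped those of elav. In replicate 2, msi at 5.30 and brat at 5.19 also stood above elav at 5.16. Both stood below elav in replicates 1 and 3.

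The other genes of the list with an optimal summit included shep, Sxl, ps, mbl, pum, Rbfox1, pAbp, how, Hrb27C, smg, sm, Fmr1, heph, orb2, Imp, bol, Rox8, ssx, B52, Hrb87F, bru2, Atx2, Syp and Rbp6. Their strongest summits ran from 2.56 at shep to 0.546 at Rbp6, and 22 of the 29 genes stood above fne. The 6 genes without an optimal summit were Adar, bru1, bru3, mle, nonA and tra2. When each summit was given to its nearest coding start alone, 25 of the 35 genes had one.

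A second list held 12 genes whose RNA is known to be processed under ELAV control in neurons, fne among them. Of these, 10 (83.3%) had an optimal summit and 5 (41.7%) one at an own promoter, with a median strongest summit of 1.19. Over all coding genes the shares were 34.2% and 23.9%, and over those at least as long as Rbp9 63.8% and 30.5%, while the median length of the 12 genes was 29498 bp. The differences were not tested. The strongest were brat, again at 5.26, nej, which encodes the acetyltransferase CBP, at 2.11 (2.14 ± 0.275, SD, n = 3), the translational repressor gene pum at 1.84 (1.77 ± 0.213), and Hrb27C, an hnRNP gene, at 1.60 (1.55 ± 0.0663). AGO1, Nrg, Imp, Dscam1 and ewg followed, from 1.23 at AGO1 to 0.551 at ewg. When each summit was given to its nearest coding start alone, 8 of the 12 genes had one. AGO1 and Nrg then had none. No gene of this list stood above elav in the optimal list, but in replicate 2 brat did, at 5.19 against 5.16. The genes arm and mei-P26 had no optimal summit. Both lists were drawn up with earlier results of these data known.

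**Figure D5:**
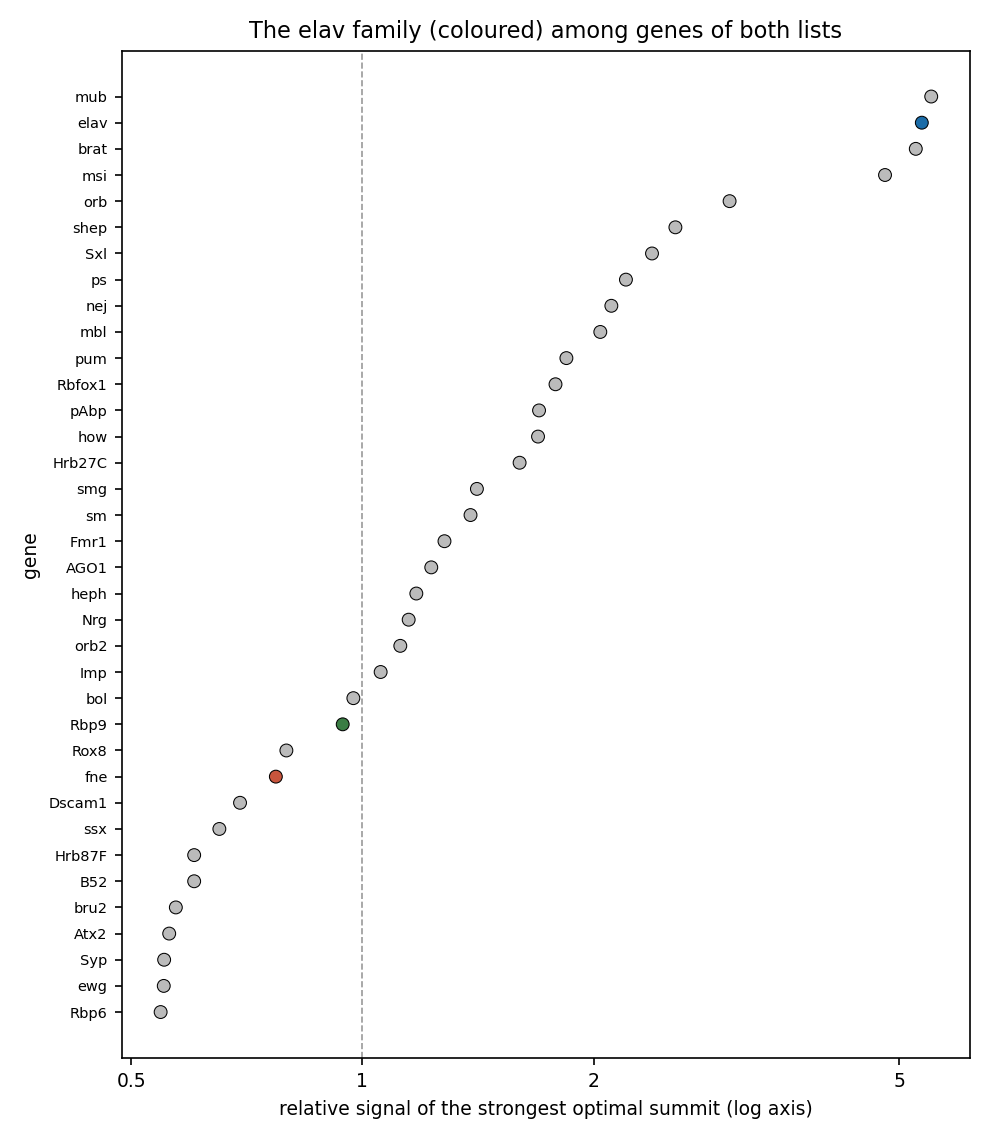
Relative signal of the strongest optimal summit (log axis) for 36 genes with one among the elav family and both lists, in falling order. Coloured points are elav (5.35), Rbp9 (0.943) and fne (0.771); the dashed line at 1 is a typical optimal site.

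In the ordered plot of list genes, elav stands second after mub, while fne and Rbp9 stand among the lower genes. The genes most like each member were taken as those with the smallest distance between log2 relative signals over the 3 replicates, among 4573 coding genes with the strongest optimal summit found in every replicate. For elav they included Csk, at a distance of 0.031, and mrt at 0.0587. For fne they were Fer3HCH at 0.0434, Desat1 at 0.0927 and Ppa at 0.105. For Rbp9 they were CG30403 at 0.138, and CG15343 and CG1636, which share a summit, at 0.143.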

How the data were processed

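Peak lists of 3 biological replicates in 1 group were used, in the dm6 build per the labels. The deposited notes say that each replicate's alignment and 1 control gave its relaxed list, all alignments gave the pooled relaxed list, and IDR across these gave the optimal list. The signal of each peak and its −log10 q-value are the authors' deposited values. Neither aligner nor peak caller is named in the sources used here. The dm3 lists were not used.

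From these, summits were counted in each gene body plus 2000 bp upstream (Ensembl BDGP6, release 115; RefSeq Release 6 sequence). A replicate summit matched a site if it was the nearest within 200 bp. Relative signal is the signal over the median of the list's peaks matched to optimal sites. A promoter is 500 bp on each side of a start. The longest annotated protein per gene was translated from the reference and aligned globally with BLOSUM62 (gap opening 10, extension 0.5). Positions are 1-based. Since 1 group exists, no group test was made. The 3 replicates came from separate biosamples, and SDs cover the spread between them.

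The members and both gene lists were chosen with earlier results of these data known. The rule for named genes took the 3 members, genes whose windows hold their summits, flanking coding genes, the list genes with an optimal summit with values for the 4 strongest, and the 3 most alike genes per member; some of these genes are not reported here. The further list extremes and flanking-peak genes named were chosen after their values were seen. Of 36 symbols in the regulator list 35 matched, since nos is a synonym of more than 1 gene in the RefSeq table. Counting and matching functions were tested on simulated data. Python 3.11.15, numpy 2.4.6, pandas 2.3.3, scipy 1.17.1, matplotlib 3.10.9 and biopython 1.88 were used.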

Additional observations from a re-analysis of the deposited data

How the results depend on the processing

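Over 25 results, 89 alternative values were computed, of which 69 stayed within 1.5 times the reported count or 1 SD of the reported value and 20 moved. When the strongest 50% of the optimal list alone was used, elav had 2, fne 0 and Rbp9 0 summits. With gene bodies alone, elav had 3 pooled summits. With as many of the strongest pooled peaks as the optimal list holds, elav had 3, fne 2 and Rbp9 1, and without peaks below a −log10 q-value of 2 Rbp9 had 1. Matching within each replicate's strongest peaks left elav 2, fne 1 and Rbp9 0 optimal summits found in all 3 replicates. Within 50 bp, TAATTA was at 0, TTAATTA at 0, CAATTA at 0 and CANNTG at 1 of the 6 optimal summits, and within 200 bp TAATTA was at 2, TTAATTA at 2 and CANNTG at 5. With own promoters alone, 5 genes of ELAV-processed RNAs and 19 regulator genes had a summit. With promoters of 200 bp on each side 0 member summits were at one, and with 1000 bp 3 were. These shifts follow from fewer peaks, shorter or longer windows. Leaving out 1 replicate at a time gave 5.20 to 5.34 for elav, 0.682 to 0.799 for fne and 0.711 to 1.07 for Rbp9. The log2 ratio of Rbp9 over fne ran from −0.21 without replicate 2 to 0.44 without replicate 1, so its sign rests on replicate 2. No paired analysis was possible because there is 1 group. Read depth is unknown, so no limit on undetected sites can be given.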
